A study of Mus musculus with 14 samples.

Results

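The proteasome, the protease that degrades ubiquitin-tagged proteins, was followed in mouse blood stem and progenitor cells that differed in how often they had divided. Its genes were taken as every gene whose probe sets carry a single symbol made of Psma, Psmb, Psmc or Psmd and a number, and each gene was represented by its brightest probe set, chosen by the highest mean over the 14 arrays. The rule found 40 genes among the 18194 genes of the table, measured by 80 probe sets, with 19 genes having 1 probe set and 21 having several. They comprised 7 alpha and 7 beta subunits of the 20S core, 3 immunoproteasome subunits (Psmb8, Psmb9 and Psmb10), 6 ATPases and 11 non-ATPases of the 19S regulatory particle, 3 chaperones of the 19S base (Psmd5, Psmd9 and Psmd10) and 2 tissue-specific 20S subunits (Psma8 and Psmb11). The last match, Psmc3ip, encodes a meiotic recombination factor that is not a proteasome subunit and was kept apart. Because probe sets were selected on their mean level, levels are given as a description. The 14 core and 17 regulatory subunits that are neither inducible nor tissue-specific are called the 31 constitutive subunits.

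RNA came from bone marrow LSK cells (lineage-negative, Sca1-positive and Kit-positive), a fraction that contains the hematopoietic stem cells and the earliest multipotent progenitors. All mice were double transgenics written hCD34 x H2BGFP (huCD34-tTA X Tet-O-H2B-GFP) on a C57BL/6 background after at least 10 generations of backcrossing, so that a human CD34 promoter drove a GFP-tagged histone in stem and progenitor cells, and every mouse, whatever the sorted level, drank doxycycline at 1 mg/ml for 12 weeks from 6 to 8 weeks of age. Doxycycline halts the labelling, so each later division dilutes the GFP, and neighbouring sort levels lie about 1 to 2 divisions apart. The levels were GFP0 (most diluted, 2 arrays), GFP1 (3 arrays), GFP2 (3 arrays), GFP3 (2 arrays) and GFP4 (GFP best retained, 4 arrays). The submitters speak of biological replicates but name no animals, so every p-value speaks of the spread among sorted samples, which may be partly technical.

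The 20S core is a barrel of stacked rings. Alpha subunits form the outer rings and the gate, and beta subunits form the inner rings, where Psmb5, Psmb6 and Psmb7 carry the chymotrypsin-like, caspase-like and trypsin-like active sites. In blood cells and under interferon, newly built cores can take up Psmb8, Psmb9 and Psmb10 in their place, which alters the peptides made for MHC class I. The 19S particle binds ubiquitin chains, removes them and threads the substrate into the core with its ring of ATPases. Nfe2l1, a transcription factor released when proteasome activity is short, acts on antioxidant response elements upstream of constitutive subunit genes, whereas interferon signals act on the genes of the inducible subunits.

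The promoters of 2 of the exchanged pairs are shown because the inducible and the constitutive partner are known to answer to different regulators. The windows come from RefSeq (GRCm38.p6), run 5′ to 3′ on the gene's strand and span 250 bases before to 50 bases after the annotated start. Capitals mark matches to 4 motifs that were searched on both strands. The motifs were TGACNNNGC (core of the antioxidant response element), the core of the interferon-stimulated response element, TTCNNNGAA (gamma-activated site) and the CCAAT box.
Psmb8, chr17:34197945-34198244, plus strand: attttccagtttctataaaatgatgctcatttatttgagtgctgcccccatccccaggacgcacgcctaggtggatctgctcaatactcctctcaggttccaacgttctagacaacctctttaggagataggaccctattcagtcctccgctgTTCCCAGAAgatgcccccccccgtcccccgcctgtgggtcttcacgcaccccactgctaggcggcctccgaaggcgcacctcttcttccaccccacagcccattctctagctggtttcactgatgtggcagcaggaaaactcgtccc
Psmb5, chr14:54617946-54618245, minus strand: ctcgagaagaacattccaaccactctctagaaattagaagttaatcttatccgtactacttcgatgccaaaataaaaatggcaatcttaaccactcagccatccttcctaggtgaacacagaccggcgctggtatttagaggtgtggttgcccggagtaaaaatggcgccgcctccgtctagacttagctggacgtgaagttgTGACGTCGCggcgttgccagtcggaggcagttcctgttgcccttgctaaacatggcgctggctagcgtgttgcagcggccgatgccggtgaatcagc
Psmb9, chr17:34187281-34187580, minus strand: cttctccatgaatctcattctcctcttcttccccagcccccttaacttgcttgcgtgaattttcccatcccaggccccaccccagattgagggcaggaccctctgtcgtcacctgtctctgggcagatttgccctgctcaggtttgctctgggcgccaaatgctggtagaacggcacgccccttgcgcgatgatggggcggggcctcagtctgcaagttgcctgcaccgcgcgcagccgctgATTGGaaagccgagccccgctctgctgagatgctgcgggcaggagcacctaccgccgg
Psmb6, chr11:70525107-70525406, plus strand: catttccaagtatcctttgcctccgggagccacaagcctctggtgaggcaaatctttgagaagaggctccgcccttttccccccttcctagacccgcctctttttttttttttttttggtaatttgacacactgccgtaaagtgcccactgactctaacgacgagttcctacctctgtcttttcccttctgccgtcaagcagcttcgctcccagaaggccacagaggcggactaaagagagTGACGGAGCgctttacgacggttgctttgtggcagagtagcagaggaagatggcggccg

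Psmb8 held 1 gamma-activated site match, Psmb5 and Psmb6 each held 1 antioxidant response core, and Psmb9 held 1 CCAAT box on the opposite strand. Windows were given for 33 of the 40 genes, 35 windows in all. TGACNNNGC occurred in 5 of these 35 (14.3%; Psmb5, Psmb6, Psmc6, Psmd9 and Psmd12), against 12.4% of all 32851 mouse windows of the same length. CCAAT occurred in 14 of 35 (40%), against 37.4% of all windows. The core of the interferon-stimulated element occurred in 3 of 35 (8.57%; Psmb3, Psmd4 and Psmd9, none of the 3 immunoproteasome genes), against 3.44% of all windows. TTCNNNGAA occurred in 2 of 35 (5.71%; Psmb8 and Psmd2), against 8.30% of all windows. Matches of different motifs did not overlap, and a match is a stretch of letters only.

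Slopes of the constitutive subunits toward the label-retaining end lay mostly below 0, though Psmb7 was the 1 constitutive subunit to pass the test over all genes. The 3 immunoproteasome subunits also had slopes below 0, and the difference between the 2 sets was not tested. The slope is the change in log2 expression per GFP level, from GFP0 to GFP4, with each level weighted equally. Of the 40 genes, 0 rose and 2 fell along the levels, namely Psmb7 and Psmc3ip, and 38 did not pass the test (limma moderated test, Benjamini-Hochberg adjusted p below 0.05 over all genes). Over all genes 2.28% rose and 1.07% fell by the same rule. Slopes lay below 0 for 35 of 40 genes (87.5%) for 28 of the 31 constitutive subunits (90.3%) and for 3 of the 3 immunoproteasome subunits, against 54.8% of all genes and 50.8% of genes with a mean log2 level of at least 10. The median slope was -0.13 over the constitutive subunits, -0.01 over all genes and -0.00 over the genes with a mean of at least 10. With an unadjusted p below 0.05, 14 of the 40 genes were lower, 12 of them constitutive, and 0 were higher. The corresponding shares of all genes were 7.0% lower and 9.71% higher. These genes vary together from array to array, so the counts do not add up as independent observations. In sorted bulk samples a lower value cannot separate less RNA per cell from fewer cells that carry it.

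**Figure D1:**
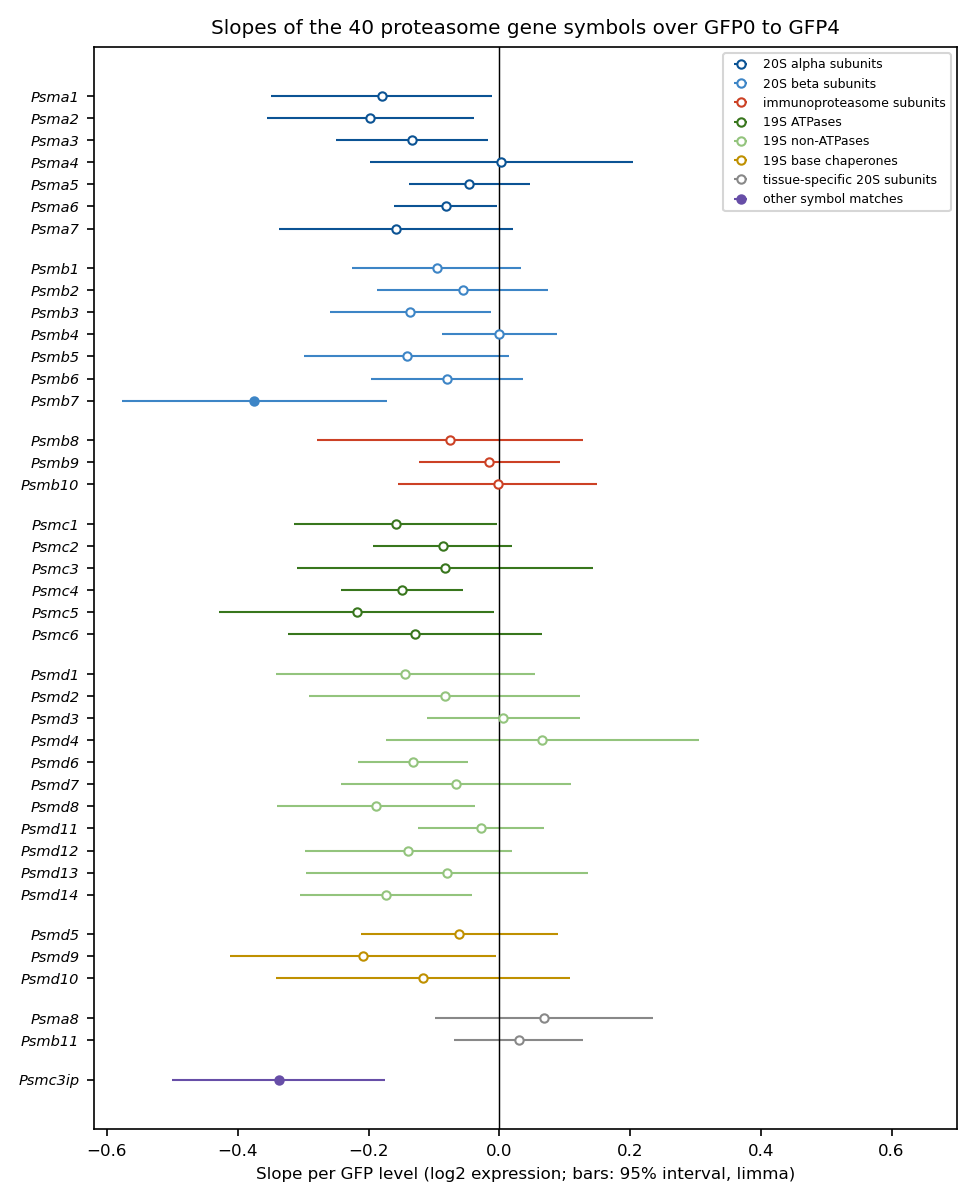
Slope of log2 expression per GFP level (horizontal axis) for each of the 40 genes (rows, coloured by group), with the 95% interval from limma as a bar. Filled points mark the 2 genes past the threshold, Psmb7 and Psmc3ip, and most subunits, the 3 immunoproteasome subunits included, lie left of 0.

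In the direct comparison of GFP4 with GFP0, 0 of the 40 genes passed in either direction by the same test, against 0.429% of all genes lower and 1.25% higher. With an unadjusted p below 0.05, 9 were lower and 0 higher, against 5.99% and 8.72% of all genes. The difference was below 0 for 36 of 40 genes, against 54.6% of all genes. All 4 GFP4 arrays lay below both GFP0 arrays for 18 of the 40 genes, against 7.75% of all genes, and above both for 0 of 40, against 10.4%. Those 18 were 6 of 7 alpha subunits, 3 of 7 beta subunits, 5 of 6 ATPases, 3 of 11 non-ATPases and Psmc3ip, and 0 of the 3 immunoproteasome subunits.

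Psmb7, which carries the trypsin-like site, fell along the levels. Its log2 values were 10.18 and 10.24 in GFP0, then 11.28, 9.59 and 10.19 in GFP1. They were 10.75, 10.17 and 9.51 in GFP2, and 9.90 and 9.69 in GFP3. In GFP4 they were 8.48, 9.06, 8.71 and 8.22. The 4 GFP4 arrays were the lowest of all 14, and the other levels overlapped. Psmb7 was the 1 gene of the 40 for which all GFP4 arrays lay below the other 10, an arrangement seen in 0.753% of all genes; for 0 of the 40 did they lie above the other 10, against 0.462% of all genes. Its mean was 8.62 ± 0.36 in GFP4 (SD, n = 4) and 10.21 ± 0.05 in GFP0 (SD, n = 2). The slope was -0.37 ± 0.09 per level (SE; limma adjusted p = 0.0481). GFP4 minus GFP0 was -1.59 ± 0.41 (95% interval -2.49 to -0.70), a GFP4 level 0.331 times that of GFP0, with a limma adjusted p of 0.0735. The difference between GFP4 and GFP3 was -1.18 ± 0.41 (limma adjusted p = 0.888), where no gene of the table passed. The slope call rests on most of the arrays. Leaving out each of the 14 in turn, it held for 5 and was lost for 9 (GFP0 replicates 1 and 2, GFP1 replicate 3, GFP2 replicate 2, both GFP3 arrays and GFP4 replicates 1, 3 and 4; limma adjusted p 0.0541 to 0.17), with slopes of -0.41 to -0.33 throughout.

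The alpha subunits form the outer rings and the substrate gate. Their slopes ran between -0.20 and 0.00 with a median of -0.13 (-0.08 without GFP0 replicate 2), 0 of 7 passed, and 4 were lower at an unadjusted p below 0.05 (Psma1, Psma2, Psma3 and Psma6). Psma2 had log2 values of 12.39, 12.19, 12.33 and 11.77 in GFP4, against 13.20 and 12.97 in GFP0, with no overlap. Its GFP1 arrays, however, spread over 13.15, 11.59 and 12.40. The Psma2 slope was -0.20 ± 0.07 (limma adjusted p = 0.182). Psma1 had log2 values of 10.18, 10.18, 10.42 and 9.74 in GFP4, against 11.03 and 11.24 in GFP0. Its highest level mean was that of GFP2 (11.71 ± 0.32, SD, n = 3). GFP4 minus GFP0 for Psma1 was -1.0 ± 0.35 (limma adjusted p = 0.18), and GFP4 minus GFP3 was -1.07 ± 0.35 (limma adjusted p = 0.888). At the other end, Psma4 had a slope of 0.00 ± 0.09 and Psma5 of -0.05 ± 0.04. Psma4 was highest in GFP2 (11.07 ± 0.08) and averaged 10.27 ± 0.41 in GFP4 and 10.35 ± 0.19 in GFP0.

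Among the beta subunits the median slope was -0.10, with 1 of 7 lower (Psmb7), and the median was -0.06 without GFP1 replicate 1. After Psmb7 the lowest slope belonged to Psmb5, the chymotrypsin-like subunit and the main target of proteasome inhibitors. Psmb5 had log2 values of 11.56, 11.68, 11.67 and 11.70 in GFP4, against 12.14 and 12.45 in GFP0. The groups did not overlap, and the GFP4 arrays had an SD of 0.07. Its slope was -0.14 ± 0.07 (limma adjusted p = 0.358), and its GFP1 arrays ran from 11.47 to 12.86, beyond both groups. Psmb3, picked out after its values were seen, had nearly the same slope, -0.14 ± 0.06 (limma adjusted p = 0.244), with overlapping GFP4 and GFP0 arrays. Psmb7 and Psmb3, but not Psmb5, were the 2 beta subunits lower at an unadjusted limma p below 0.05. Psmb6, the caspase-like subunit, averaged 12.71 ± 0.21 in GFP4 and 12.94 ± 0.06 in GFP0, with overlapping arrays and a slope of -0.08 ± 0.05 (limma adjusted p = 0.502). The structural subunit Psmb4 had a slope of -0.00 ± 0.04 (limma adjusted p = 1.0). Psmb2 followed another course: it averaged 10.83 ± 0.24, 10.76 ± 0.15 and 10.61 ± 0.05 in GFP1, GFP2 and GFP3, but 9.84 ± 0.49 in GFP4 and 10.01 ± 0.15 in GFP0. Its departure from a straight line had an unadjusted limma F-test p of 0.0042, and an adjusted p of 0.679.

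The 19S ATPases form the unfolding ring that docks on the core. All 6 slopes were below 0, from -0.22 to -0.08 with a median of -0.14, and 0 of 6 passed. Psmc5 had the lowest slope, -0.22 ± 0.10 (limma adjusted p = 0.281), with log2 values of 8.71, 8.77, 8.88 and 8.23 in GFP4, against 9.44 and 9.62 in GFP0. Psmc1, whose tail helps to open the gate, had 8.46, 8.86, 9.10 and 8.79 in GFP4, against 9.26 and 9.87 in GFP0, and a slope of -0.16 ± 0.07 (limma adjusted p = 0.288). In neither gene did the GFP4 and GFP0 arrays overlap, although GFP1 replicate 1 (Psmc5 10.51, Psmc1 10.23) was the highest array for both. The flattest ATPases were Psmc3, with a slope of -0.08 ± 0.10, and Psmc2, with -0.09 ± 0.05. Psmc4, picked out after its values were seen, came nearest to the threshold among the ATPases, with a slope of -0.15 ± 0.04 (limma adjusted p = 0.0832).

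The 19S non-ATPases bind and process the ubiquitin chain and hold the particle together. Their median slope was -0.08, 9 of 11 lay below 0, and 0 of 11 passed. The median was -0.13 without GFP0 replicate 1 or without GFP1 replicate 2, and -0.04 without GFP1 replicate 1. Psmd14, the deubiquitinase that cuts the chain from the substrate, had log2 values of 11.54, 11.24, 11.73 and 11.57 in GFP4, against 12.03 and 12.55 in GFP0. Its slope was -0.17 ± 0.06 (limma adjusted p = 0.154). Psmd8, a lid subunit, had 10.17, 9.97, 10.39 and 9.92 in GFP4, against 10.43 and 10.96 in GFP0, and a slope of -0.19 ± 0.07 (limma adjusted p = 0.182). The groups did not overlap in either gene. The lid subunit Psmd12 averaged 9.75 ± 0.39 in GFP4 and 10.35 ± 0.37 in GFP0, with overlapping arrays. The lid subunit Psmd6, again picked out after its values were seen, had 11.72, 11.39, 11.92 and 11.87 in GFP4, against 12.28 and 12.29 in GFP0, and a slope of -0.13 ± 0.04 (limma adjusted p = 0.0899). Opposite in sign were Psmd4, a ubiquitin receptor, with 0.07 ± 0.11, and the lid subunit Psmd3, with 0.01 ± 0.05. Both signs depended on single arrays. Leaving out 1 array, the slope ran from -0.02 to 0.15 for Psmd4 and from -0.07 to 0.08 for Psmd3. Of the dimmer probe sets of Psmd4, 1 had a slope of 0.04 and another of -0.02. Psmd4 averaged 11.21 ± 0.78 in GFP4 and 10.80 ± 0.61 in GFP0, with wide overlap.

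The immunoproteasome subunits showed no slope that passed, and all 3 estimates lay between -0.08 and 0. Psmb8 had log2 values of 11.16, 11.36, 11.10 and 10.39 in GFP4, against 11.44 and 11.15 in GFP0, and a slope of -0.08 ± 0.09 (95% interval -0.28 to 0.13; limma adjusted p = 0.752). Psmb9 had 11.28, 10.99, 11.26 and 11.14 in GFP4, against 11.02 and 11.46 in GFP0. Its slope was -0.02 ± 0.05 (95% interval -0.12 to 0.09; limma adjusted p = 0.912). Psmb10 had 10.97, 11.04, 11.23 and 10.59 in GFP4, against 10.84 and 11.12 in GFP0. Its slope was -0.00 ± 0.07 (95% interval -0.15 to 0.15; limma adjusted p = 0.992). The 2 groups overlapped in all 3 genes. The intervals of Psmb8 and Psmb10 include the constitutive median of -0.13 and that of Psmb9 ends just above it.

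**Figure D2:**
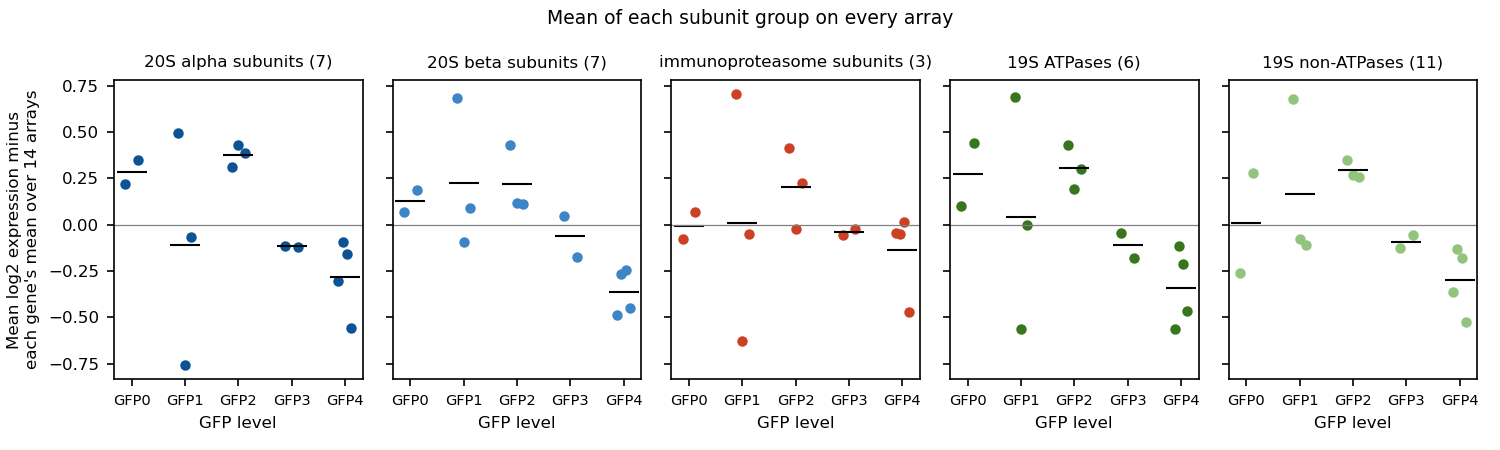
Mean log2 expression of each subunit group on every array, after subtracting each gene's mean over the 14 arrays, by GFP level; points are arrays, bars are level means and the number of genes stands in each title. The 4 GFP4 arrays lie below both GFP0 arrays for the alpha subunits, beta subunits and ATPases, and the 2 levels overlap for the non-ATPases and for the immunoproteasome subunits.

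Within an array, the log2 difference between an inducible subunit and the subunit it replaces was compared across levels. Its absolute size mixes 2 probe sets and is no ratio of RNA amounts, so only its change is read. For Psmb10 minus Psmb7 the difference was 0.66 and 0.88 in GFP0, and 0.45, 0.81 and 0.58 in GFP1. It was 0.65, 0.73 and 1.85 in GFP2, and 1.09 and 1.31 in GFP3. In GFP4 it reached 2.49, 1.97, 2.52 and 2.37. All 4 GFP4 arrays exceeded the other 10, with GFP2 replicate 3 the nearest. The slope was 0.37 per level (two-sided permutation test, 100000 resamples, p = 0.00793, adjusted over the 3 pairs p = 0.0238). Of its parts, Psmb7 had a slope of -0.37 and Psmb10 of -0.00. The adjusted p passed the threshold without any 1 array except GFP0 replicate 1 (slope 0.35, permutation adjusted p = 0.108) and GFP3 replicate 2 (slope 0.36, permutation adjusted p = 0.0709). For Psmb8 minus Psmb5 the slope was 0.07 (permutation p = 0.327, adjusted p = 0.327). The mean difference was -0.65 ± 0.45 in GFP4 and -0.997 ± 0.43 in GFP0. While 3 of the 4 GFP4 arrays exceeded every array of the other levels, GFP4 replicate 4 was the lowest of all arrays (-1.31). For Psmb9 minus Psmb6 the slope was also 0.07 (permutation p = 0.262, adjusted p = 0.327), with means of -1.55 ± 0.30 in GFP4 and -1.70 ± 0.25 in GFP0. Neither of these pairs was shown to shift, and their slopes depended on single arrays. The Psmb8 to Psmb5 slope was 0.126 without GFP0 replicate 1 and 0.0058 without GFP0 replicate 2, and the Psmb9 to Psmb6 slope was 0.0306 and 0.1 without the same arrays.

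**Figure D3:**
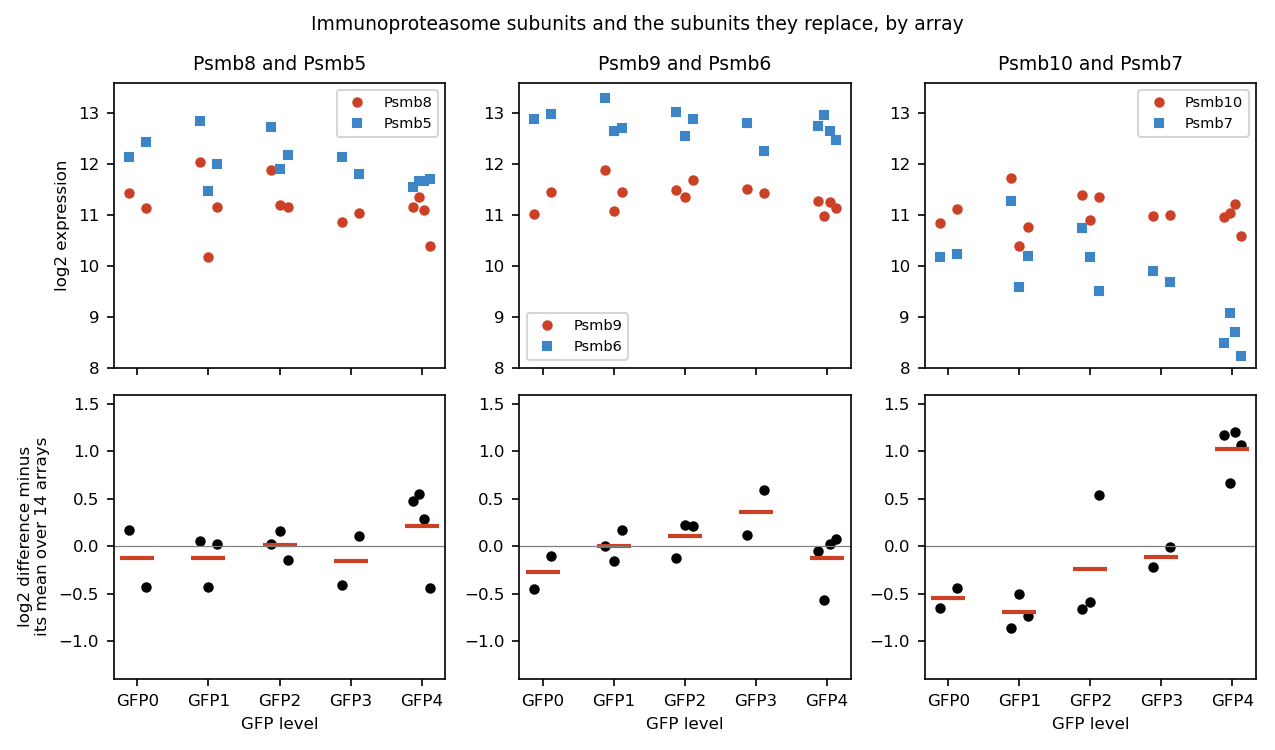
Upper row, log2 expression of each inducible subunit (circles) and the subunit it replaces (squares) on every array by GFP level; lower row, their log2 difference minus its mean over the 14 arrays, with level means as bars. In the pair Psmb10 and Psmb7 the 4 GFP4 arrays stand above all others. In the pair Psmb8 and Psmb5 3 of the 4 do, and GFP4 replicate 4 is the lowest of all arrays.

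Between neighbouring levels 0 of the 40 genes passed, and 0.0% of all genes did (limma), so the steps are given as values. For GFP3 minus GFP2 the difference was below 0 in 29 of the 31 constitutive subunits, with a median of -0.39, and for GFP4 minus GFP3 in 25 of 31, with a median of -0.17. For GFP2 minus GFP1 it was below 0 in 10 of 31, with a median of 0.24, and for GFP1 minus GFP0 in 21 of 31, with a median of -0.11. Among the 3 immunoproteasome subunits, GFP3 minus GFP2 was below 0 in 3 (median -0.23) and GFP4 minus GFP3 in 2 (median -0.04). GFP2 minus GFP1 was below 0 in 0 of them (median 0.25) and GFP1 minus GFP0 in 2 (median -0.01). The share of all genes below 0 was not counted for single steps. At an unadjusted p below 0.05, GFP1 minus GFP0 counted 2 of the 40 genes lower and 1 higher, against 4.9% and 5.93% of all genes. GFP2 minus GFP1 counted 0 lower and 1 higher, against 1.1% and 1.6%. GFP3 minus GFP2 counted 2 lower and 0 higher, against 0.566% and 0.791%. GFP4 minus GFP3 counted 4 lower and 0 higher, against 2.7% and 1.24%. The F test over any difference between levels called 0 of 40, against 0.698% of all genes, and 10 of 40 had an unadjusted p below 0.05, against 12.8%. The F test for departure from a straight line called 0 of 40, against 0.0% of all genes, and 2 of 40 (Psma1 and Psmb2) had an unadjusted p below 0.05, against 7.01%.

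On single arrays the subunits stood high or low together. GFP1 replicate 1 held the highest value of 21 of the 40 genes, whereas it was the highest array for 8.71% of all genes. GFP1 replicate 2 held the lowest value of 13 of 40, and was the lowest array for 9.55% of all genes. The mean of the 31 constitutive subunits was 11.90, 10.93 and 11.23 in the GFP1 arrays, a wider range than over the other 11 arrays (10.76 to 11.63). It was 10.84, 11.11, 11.06 and 10.76 in GFP4, against 11.25 and 11.57 in GFP0, with no overlap. The mean over all genes lay between 7.82 and 7.88 on every array, but the distributions differed. The median over all probe sets ran from 6.96 (GFP1 replicate 1) to 7.18 (GFP0 replicate 1). The interquartile range ran from 2.09 (GFP0 replicate 1) to 2.73 (GFP2 replicate 3). GFP1 replicate 1 also had the smallest 3 prime to 5 prime difference of Actb, 2.99, where the other arrays ran from 3.57 to 5.05. With these differences, for Actb and for Gapdh, as covariates, 0 of the 40 genes passed for the slope, and Psmb7 had a slope of -0.38 (limma adjusted p = 0.104). Across the 14 arrays the median pairwise correlation was 0.73 among alpha subunits, 0.64 among ATPases, 0.49 among non-ATPases, 0.41 among beta subunits and 0.73 among the 3 immunoproteasome subunits. Between constitutive and immunoproteasome subunits it was 0.57. Within levels, after subtracting level means, these medians were 0.82 for alpha subunits, 0.33 for ATPases, 0.36 for non-ATPases, 0.19 for beta subunits, 0.82 for immunoproteasome subunits and 0.66 between constitutive and immunoproteasome subunits. These arrays share RNA amplification and normalization, and COP9 signalosome subunits (median 0.60) and chaperonin subunits (0.56) correlated about as well among themselves. The constitutive subunits correlated with the COP9 signalosome (median 0.50) and the chaperonin (0.54) about as well as with each other (0.51). The shared rise and fall is therefore not particular to the proteasome. Psmc5 followed the other constitutive subunits most closely (mean correlation 0.64) and Psmd3 least (-0.15).

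The remaining matches were mixed. Psmd5, Psmd9 and Psmd10, which help to assemble the ATPase ring and then leave it, had slopes of -0.06 ± 0.07, -0.21 ± 0.09 and -0.12 ± 0.10, none of which passed. Psma8, a testis subunit, and Psmb11, a subunit of thymic cortical epithelium, averaged 6.98 and 7.24 over the arrays, near the median of the whole table (7.03). Their slopes were 0.07 ± 0.08 and 0.03 ± 0.05. No detection calls come with these values, so it is not shown that either gene was expressed. Psmc3ip fell along the levels, with log2 values of 9.08, 9.90, 9.54 and 8.90 in GFP4, against 10.40 and 10.90 in GFP0, and no overlap. Its slope was -0.34 ± 0.08 (limma adjusted p = 0.0302). The call was lost without any 1 of GFP0 replicates 1 and 2, GFP3 replicate 2 and GFP4 replicates 1 and 4 (limma adjusted p 0.0511 to 0.125).

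Where a gene had several probe sets, 34 of the 40 further ones had a slope of the same sign as the brightest. Of the 27 at or above the median of the table, 25 did so. In a fit over all 34958 single-symbol probe sets 0 of the further ones passed, and of the brightest only that of Psmc3ip did (slope, limma adjusted p = 0.0388). The call of Psmb7 was lost there (limma adjusted p = 0.0604). Psmc3ip had a dimmer probe set with a slope of -0.24 (limma adjusted p = 0.25). The second probe set of Psmd6 had a slope of -0.22 (limma adjusted p = 0.106) and that of Psma5 one of -0.17 (limma adjusted p = 0.256). For Psmb4 the second-brightest probe set had -0.11 ± 0.08 (limma adjusted p = 0.611), against -0.00 ± 0.04 for its brightest. For Psmc2 it had -0.13 ± 0.09 (limma adjusted p = 0.543), against -0.09 ± 0.05. The flat slopes given for these genes are those of the brightest probe set, and the difference between probe sets was not tested. Psmb8 had a second, dimmer probe set with a slope of -0.17 (limma adjusted p = 0.213), more negative than the -0.08 of its brightest. Psmb7, Psmb9 and Psmb10 have 1 probe set each, so their values have no second measurement.

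Genes that act around the proteasome were taken from lists of its partners. All 5 assembly factors had slopes between -0.15 and -0.12, with 0 of 5 passing, and Pomp, which matures the core, had -0.14 ± 0.09. Of 6 associated proteins 1 fell, against 1.07% of all genes, namely Uchl5, a deubiquitinase of the 19S particle. It had log2 values of 8.10, 8.66, 8.49 and 8.18 in GFP4, against 9.19 and 9.62 in GFP0, and a slope of -0.27 ± 0.06 (limma adjusted p = 0.0209). Of 4 activators and inhibitors 0 passed. Psme3, a nuclear activator, had a slope of -0.27 ± 0.09 (limma adjusted p = 0.154), Psme1, an interferon-inducible activator subunit, -0.08 ± 0.07, Psme4 0.06 ± 0.07 and the inhibitor Psmf1 -0.04 ± 0.05. Of 7 ubiquitin and delivery factors and 6 regulators of transcription 0 passed, with median slopes of 0.08 and 0.06. Nfe2l1 had a slope of 0.03 ± 0.04 and Nfe2l2, the related stress factor, 0.03 ± 0.07.

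Of 12 antigen processing genes 1 rose and 0 fell, against 2.28% and 1.07% of all genes, and the median slope was 0.09. At an unadjusted limma p below 0.05, 5 were higher and 0 lower, against 9.71% and 7.0% of all genes. All 4 GFP4 arrays lay above both GFP0 arrays for 5 of the 12, against 10.4% of all genes. They lay below both for 0, against 7.75%. The gene that rose was Nlrc5, a transactivator of MHC class I genes, with log2 values of 9.98, 10.10, 9.78 and 9.93 in GFP4, against 8.69 and 8.85 in GFP0. Its slope was 0.28 ± 0.06 (limma adjusted p = 0.0209), and GFP4 minus GFP0 was 1.18 ± 0.26 (limma adjusted p = 0.0393). Irf1, an interferon-regulated transcription factor, had a slope of 0.15 ± 0.05 (limma adjusted p = 0.139). The peptide transporter genes Tap1 and Tap2 had 0.11 ± 0.07 and 0.06 ± 0.07, and B2m had 0.01 ± 0.05. The median correlation between the 3 immunoproteasome subunits and these 12 genes over the arrays was 0.22, given as a description. For comparison, 0 of 9 COP9 signalosome subunits, a complex related to the 19S lid, and 0 of 8 chaperonin subunits passed, with median slopes of -0.11 and -0.03. The constitutive proteasome median of -0.13 thus lay close to that of the COP9 signalosome.

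**Figure D4:**
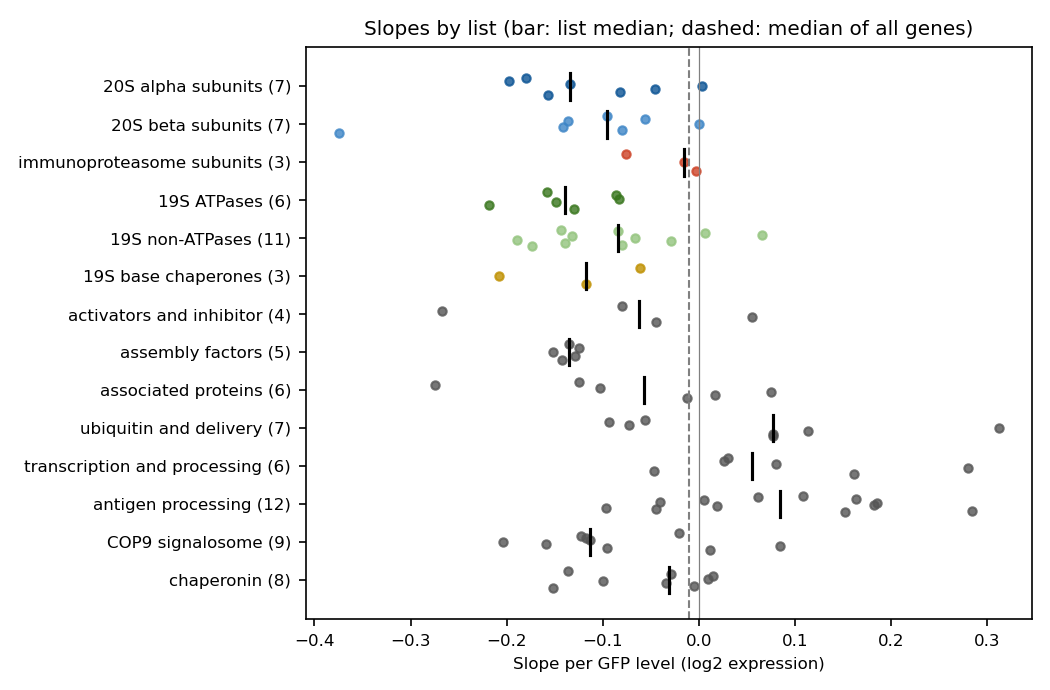
Slope of log2 expression per GFP level (horizontal axis) for each gene (points) of each list (rows, number of genes in brackets), with the list median as a black bar and the median of all genes as a dashed line. Constitutive subunit lists, base chaperones, assembly factors and the COP9 signalosome have medians between -0.14 and -0.08, and the antigen processing, transcription and delivery lists have medians above 0.

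Markers of other cell types differed along the same axis. Kit, part of the LSK definition, had log2 values between 8.05 and 9.91 on all arrays. Of the 5 LSK identity genes (Kit, Cd34, Procr, Cd48 and Slamf1) 3 had higher and 1 lower slopes at an unadjusted limma p below 0.05. By the same rule 9.71% of all genes were higher and 7.0% lower. Cd48, absent from the surface of the most primitive stem cells, fell with a slope of -1.07 ± 0.15, and Procr, a stem cell marker, rose with 0.78 ± 0.11 (limma adjusted p = 0.00286 and 0.00314). All 3 mast cell markers (Cpa3, Ms4a2 and Fcer1a) fell at a limma adjusted p below 0.05, against 1.07% of all genes. The mean of the list was 5.88 to 7.98 in GFP4 arrays and 9.14 to 10.1 in GFP0 arrays. Of 6 neutrophil, monocyte and macrophage markers 1 fell by this adjusted rule (Ltf), and 5 were lower at an unadjusted p below 0.05. Their list means were 7.98 to 9.79 in GFP4 and 10.4 to 11.8 in GFP0. Of 6 T and NK cell markers 1 fell by the adjusted rule (Nkg7), and 4 were lower at an unadjusted p below 0.05. Their list means were 6.80 to 7.56 in GFP4 and 8.03 to 9.04 in GFP0. Of 4 B and plasma cell, 5 dendritic cell and 2 erythroblast markers 0 passed the adjusted rule. At an unadjusted p below 0.05, 1, 1 and 0 of them were lower. The part of these cells in the subunit slopes was not tested.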

How the data were processed

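RNA of sorted LSK cells was amplified and hybridised to Affymetrix arrays, as the labels' protocols state. The submitters' processing notes name GCOS, RMA and affy without versions. The deposited values are log2 expression per probe set, and were used as deposited. The table holds 45101 probe sets, of which 34958 carry 1 gene symbol in the platform annotation, 932 several and 9211 none; 34754 matched RefSeq (GRCm38.p6) and 0 symbols changed. Each gene was its brightest probe set, which gave 18194 genes, with no filter on dim ones. 0 columns belonged to no sample.

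In limma 3.58.1 (R 4.3.3), 1 mean per level was fitted over the 14 arrays, moderated by empirical Bayes (9 residual and 3.99 prior degrees of freedom). Tests were two-sided, and p-values were adjusted by Benjamini-Hochberg over the 18194 genes, with a threshold of 0.05. Errors of slopes and differences are moderated SEs. Pair differences were tested by permuting array labels. The members and lists were chosen with earlier results of these data known, so counts over them support no claim by themselves. Named genes were the exchanged pairs, genes past a threshold, and the 2 highest and 2 lowest slopes and differences of each subunit group, with the base chaperones, tissue-specific subunits, Psmc3ip and partners listed by name. Psme2 and Adrm1 are not analysed here. The number of arrays limits precision. Figures were drawn with matplotlib 3.10.9.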

Additional observations from a re-analysis of the deposited data

Results flagged for a closer look

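In GFP4, the only level with 4 arrays, 36 results were checked for 1 array standing far from the other 3. They included single genes and subunit group means, so not every one of the 40 genes was among them. Of the 36, 3 had such an array, and chance flags about 1 in 20 groups. Psma8 was at 6.01 in GFP4 replicate 1, against 7.13 to 7.28 in the other 3 arrays. Psmb11 was at 7.69 in GFP4 replicate 1, against 7.32 to 7.35. The mean of the immunoproteasome subunits was 10.7 in GFP4 replicate 4, against 11.1 to 11.2. GFP4 replicate 1 also had the narrowest interquartile range of the GFP4 arrays (2.21, against 2.40 to 2.48), and its part in these values was not tested.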

How the results depend on the processing

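Over 25 alternatives, 0 of the 40 genes rose along the levels in any, and between 31 and 37 had a slope below 0. The 2 falls were less stable. The count was 0 with median centring of arrays, with array quality weights and with the replicate number as a block, and 4 with a regression on the level over arrays. Leaving out 1 array at a time it ran from 0 to 4: it was 0 without GFP0 replicate 1, GFP0 replicate 2, GFP3 replicate 2, GFP4 replicate 1 or GFP4 replicate 4, and 4 (Psma1, Psma2, Psmb7 and Psmc3ip) without GFP1 replicate 2. In alternatives chosen after seeing the data it was 0 without the GFP0 and GFP4 arrays numbered 1 (narrow spread), 0 without the GFP1 arrays numbered 1 and 2, and 0 with the 3 prime to 5 prime covariates. For GFP4 against GFP0 the count of lower genes, 0 in the report, was 1 (Psmd6) with a gene's probe sets averaged, 0 to 1 leaving out 1 array, and 2 (Psma2 and Psmb7) without the GFP1 arrays numbered 1 and 2. The cause was not tested. The slope of Psmb7 stayed between -0.44 and -0.33 and its limma adjusted p between 0.0221 and 0.226, past the threshold in 10 of 25. The slope of Psmc3ip stayed between -0.39 and -0.28 and its limma adjusted p between 0.0144 and 0.244, past the threshold in 13 of 25. The Psmb10 minus Psmb7 slope stayed between 0.34 and 0.40. Leaving out 1 array it ran from 0.35 to 0.40, and without the GFP0 and GFP4 arrays numbered 1 it was 0.34 (permutation adjusted p = 0.126). Leaving out 1 array, the median slope ran from -0.16 to -0.08 for alpha subunits, -0.12 to -0.06 for beta subunits, -0.16 to -0.10 for ATPases, -0.13 to -0.04 for non-ATPases, -0.19 (without GFP0 replicate 1) to -0.07 (without GFP1 replicate 1) for base chaperones and -0.05 (without GFP0 replicate 1) to 0.03 (without GFP0 replicate 2) for immunoproteasome subunits. Signs turned for single probe sets taken by themselves: 1 of Psma3 (slope 0.05, GFP4 minus GFP0 0.32), 1 of Psma1 (slope 0.0395, GFP4 minus GFP0 0.0866) and 1 of Psmd9 (slope 0.0322). A change of sign between values whose 95% intervals both include 0 was not counted. Whether the replicate numbers pair the arrays is not settled by these values. Of 23 same-numbered pairs 9 correlated above 0.1, with a range of -0.26 to 0.58. Their median was 0.05, against -0.05 for differently numbered pairs, and 6 of 14 arrays correlated best with their own number. Over all genes the replicate block called 337 slopes, against 609 without it. The filter on dim genes and the variance model cannot act on the pair differences, and the covariates were not run for them. With 2 arrays each in GFP0 and GFP3, differences involving these levels are the least precise.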
